A study of Mus musculus with 6 samples.

Results

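Kupffer cells are the macrophages that live in the liver sinusoids. They are kept alive by signals through the receptor for colony stimulating factor 1, take up particles, dying cells and complement-coated microbes, and make most of the complement protein C1q of the tissue. Their transcripts can be read in whole liver RNA beside those of hepatocytes, which make up most of the tissue. The 10 markers described here are Adgre1, Clec4f, Cd68, Csf1r, Marco, Vsig4, C1qa, C1qb, C1qc and Cd5l, chosen by name, and every probe set that the platform annotation gives to 1 of these symbols was taken. This gave 15 of the 35067 probe sets with a single symbol, for 10 of 18194 genes. Of the 15 probe sets, 14 lie on the 430A design and 1, for Marco, on the 430B design.

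The study compared livers of male B6SJL hybrid mice aged 32 to 37 days on Affymetrix 430A and 430B arrays, with 1 array of each design for each of 3 genotypes. LT mice carried the ApoErtTA and TRE2-TAg transgenes and were induced to make SV40 large T antigen, a binder of p53 and of the retinoblastoma proteins, together with small t. 17kT mice were labelled with the same transgene names (the genotype field reads TRE2-TA in place of TRE2-TAg) and expressed, on induction, the truncated antigen 17kT, without the part that binds p53, together with small t. WT mice carried no transgene. For 4 days the drinking water of every animal, including WT, held doxycycline (25 µg/ml) and 2.5% sucrose. WT mice therefore differ from both transgenic groups in ApoErtTA as well as in the viral proteins. The transgenes are described as liver-specific, and whether macrophages made any viral protein was not measured here. The number of animals behind each RNA sample was not given in the sources used here.

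Values are MAS5 signal intensities on a linear scale, brought to a common 2% trimmed mean per design. A floor, the median signal of a design (90.4 for 430A, 140.5 for 430B), was set before log2 ratios were taken within a design. With 1 array per genotype and design there is no replicate error and no test. A difference was called when it reached 2-fold, that is 1 on the log2 scale. The 100 probe sets that the designs have in common gave the spread between 2 measurements of one RNA. This technical SD of a log2 ratio was 0.23 when LT was set against WT, 0.28 when 17kT was set against WT and 0.26 between LT and 17kT. It covers the scatter of single probe sets, and neither a shift shared by a whole array nor a difference between animals. Across these 100 probe sets the median of the 430A ratio minus the 430B ratio was -0.25, 0.19 and -0.36, in that order. Signals of different probe sets were not set against each other, since each probe set has its own response.

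Fluidics station 2 was used for both LT arrays and station 1 for the arrays of 17kT and WT, so an effect of station cannot be told apart from that of LT. For Gapdh, the 3' over 5' signal ratio, a sign of shortened RNA or cDNA when high, was 3.08 and 3.16 on the LT arrays and 3.53 and 2.85 on the 17kT arrays, against 5.81 and 6.04 on the WT arrays. The same ratio for Actb did not set WT apart, at 2.52 and 2.50 on the LT arrays and 2.13 and 1.72 on the 17kT arrays, against 2.57 and 2.29 on the WT arrays. The part of the Gapdh difference in the results below was not tested. In whole liver RNA, fewer macrophages and less RNA per macrophage cannot be told apart.

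Promoter stretches are shown for 4 markers, because C1qb and C1qc are neighbours whose ratios to WT differed and because Vsig4 and Cd5l are typical of resident macrophages. PU.1, the product of Spi1, is the transcription factor that sets up the myeloid lineage and is known to bind around the letters GAGGAA. Each stretch is from the RefSeq promoter table (build GRCm38.p6), runs 5′ to 3′ on the gene's strand and covers the bases from 200 to 25 before the annotated start. Capitals mark GAGGAA or its reverse complement TTCCTC. Vsig4 lies at chrX:96293463-96293638 on the minus strand, C1qb at chr4:136886225-136886400 on the minus strand, C1qc at chr4:136892939-136893114 on the minus strand and Cd5l at chr3:87357681-87357856 on the plus strand.
Vsig4: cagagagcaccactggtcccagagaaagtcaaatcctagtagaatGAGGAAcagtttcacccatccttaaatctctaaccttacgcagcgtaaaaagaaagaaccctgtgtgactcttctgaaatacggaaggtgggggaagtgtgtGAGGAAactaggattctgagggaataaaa
C1qb: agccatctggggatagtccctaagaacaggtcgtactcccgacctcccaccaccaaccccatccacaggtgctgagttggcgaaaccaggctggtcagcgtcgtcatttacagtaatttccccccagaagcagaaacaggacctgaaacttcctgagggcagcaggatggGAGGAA
C1qc: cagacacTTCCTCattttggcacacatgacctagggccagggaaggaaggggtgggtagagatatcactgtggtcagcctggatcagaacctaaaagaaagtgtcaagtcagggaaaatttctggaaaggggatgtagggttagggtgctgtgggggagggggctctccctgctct
Cd5l: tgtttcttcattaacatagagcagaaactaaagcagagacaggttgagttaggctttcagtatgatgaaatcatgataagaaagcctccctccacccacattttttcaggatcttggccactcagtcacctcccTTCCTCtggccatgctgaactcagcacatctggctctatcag

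Of the 10 markers, 7 had an entry in that table. Over the 250 bases before the start, GAGGAA on either strand was present in 6 of these 7, Clec4f being the one without it, and in 23.3% of all 32851 promoter windows. The AP-1 motif TGANTCA, which is searched on both strands at once because it reads the same on each, was present in 1 of the 7, Cd68, and in 6.75% of all windows. These matches describe the letters only. Vsig4 held GAGGAA at 2 places, 155 and 53 bases before its start. The C1qb match stood 30 bases before the start and the C1qc match 193 bases before.

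The macrophage markers stayed within 2-fold of their WT signals in both transgenic livers, except C1qc in LT. These calls depend on scaling: with arrays scaled to the hybridisation controls C1qc in LT stood at -0.82 and 5 of 15 probe sets were at least 2-fold higher in 17kT, and under 2 other scalings C1qc was at least 2-fold lower in 17kT. Every one of the 15 probe sets was above the floor on all 3 arrays of its design. The largest signal over the smallest across the 3 genotypes ran from 1.12-fold for a Csf1r probe set to 2.28-fold for C1qc. In LT against WT, 0 of 15 probe sets were at least 2-fold higher and 1, C1qc, was at least 2-fold lower. Over all 20674 measured probe sets of that comparison, 10.6% were higher and 8.21% were lower, 18.8% in all. In 17kT against WT, 0 of 15 were higher, where 9.48% of all 21203 probe sets were, and 0 were lower, where 7.7% were, 17.2% in all. In LT against 17kT, 0 of 15 passed the rule, against 8.24% of all 20451 probe sets, 4.24% higher and 4.0% lower. The share in this comparison was 4.79% on 430A alone, which holds 14 of the 15, and 12.5% on 430B alone. Counted by gene, 20.1%, 18.6% and 8.7% of all measured genes passed in the 3 comparisons, and in the last of them 4.47% were higher and 4.23% lower. With 15 probe sets these shares leave room for only a few calls, so the counts do not set the markers apart from the background.

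**Figure D1:**
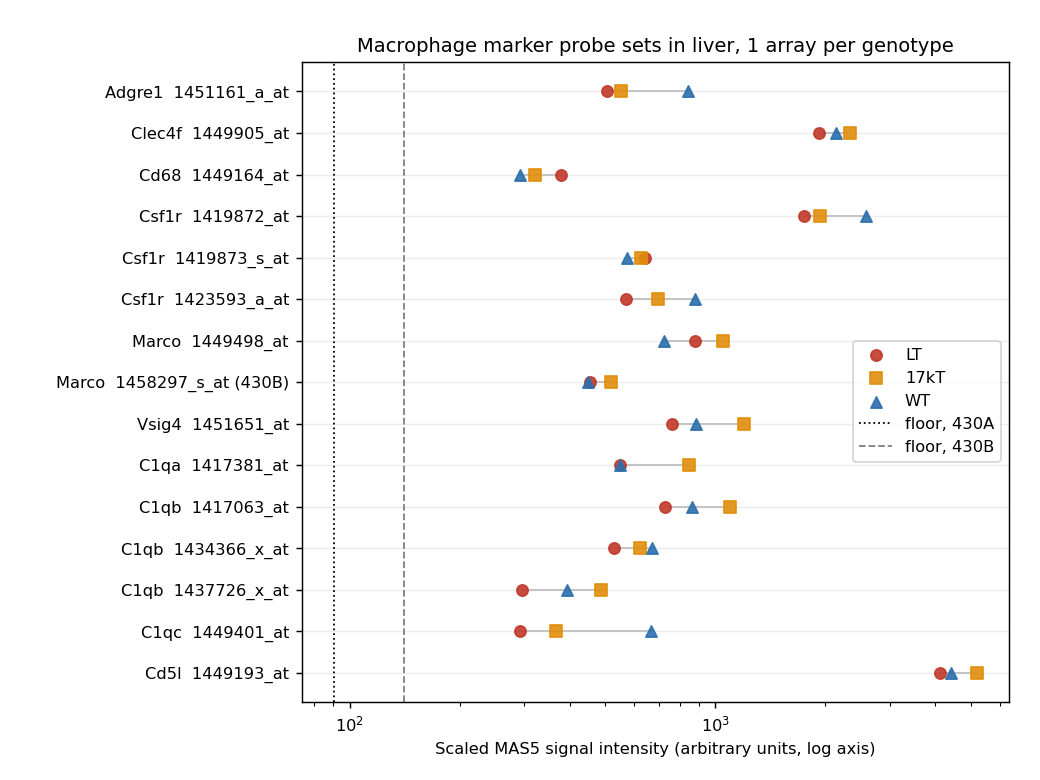
Signal of each macrophage marker probe set (rows) on the LT, 17kT and WT arrays, on a log axis in arbitrary MAS5 units, with the floor of each design as a vertical line. All points lie above their floor, and the widest spread is that of C1qc, with 293 in LT, 366 in 17kT and 668 in WT; points of different rows are not comparable in level.

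Adgre1 encodes F4/80, the adhesion receptor used as a general antigen of mouse macrophages. Its signal (1451161_a_at) was 505 in LT and 551 in 17kT liver, against 839.7 in WT liver. Both transgenic livers were below WT, with log2 ratios of -0.73 for LT and -0.61 for 17kT, each more than 2 times the technical SD and neither past 2-fold. Ratios beyond 2 technical SDs were common, at 51.8% of all probe sets above the floor on both arrays in LT against WT and 39.1% in 17kT against WT, where 4 and 3 of the 15 marker probe sets were. LT and 17kT differed by -0.13, within the technical SD of 0.26. When arrays were scaled to the hybridisation controls the 17kT ratio turned to 0.11, while the LT ratio stayed below 0 under all 6 scalings (-0.99 to -0.36).

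Csf1r encodes the receptor tyrosine kinase for the growth factors CSF1 and IL34, on which macrophage survival depends. It has 3 probe sets. 1419872_at gave 1752 in LT and 1929 in 17kT, against 2588 in WT. 1423593_a_at gave 569.7 in LT and 696 in 17kT, against 883 in WT. Both of these were lowest in LT and highest in WT. 1419873_s_at gave 644 in LT and 624 in 17kT, against 573 in WT, and so ran the other way. The log2 ratios to WT were -0.56, -0.63 and 0.17 for LT, a mean of -0.34 ± 0.44 (SD over 3 probe sets), and -0.42, -0.34 and 0.12 for 17kT, a mean of -0.21 ± 0.30 (SD over 3 probe sets). The spread between probe sets was thus as wide as the difference itself, and no direction for Csf1r is given.

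Clec4f, a C-type lectin that in mouse is restricted to Kupffer cells, gave (1449905_at) 1926 in LT and 2342 in 17kT, against 2144 in WT. WT lay between the transgenic livers. The log2 ratios to WT, -0.15 for LT and 0.13 for 17kT, were within the technical SD, and both signs turned under other scalings. LT against 17kT stood at -0.28, just past the technical SD of 0.26, and stayed below 0 under all 6 scalings.

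**Figure D2:**
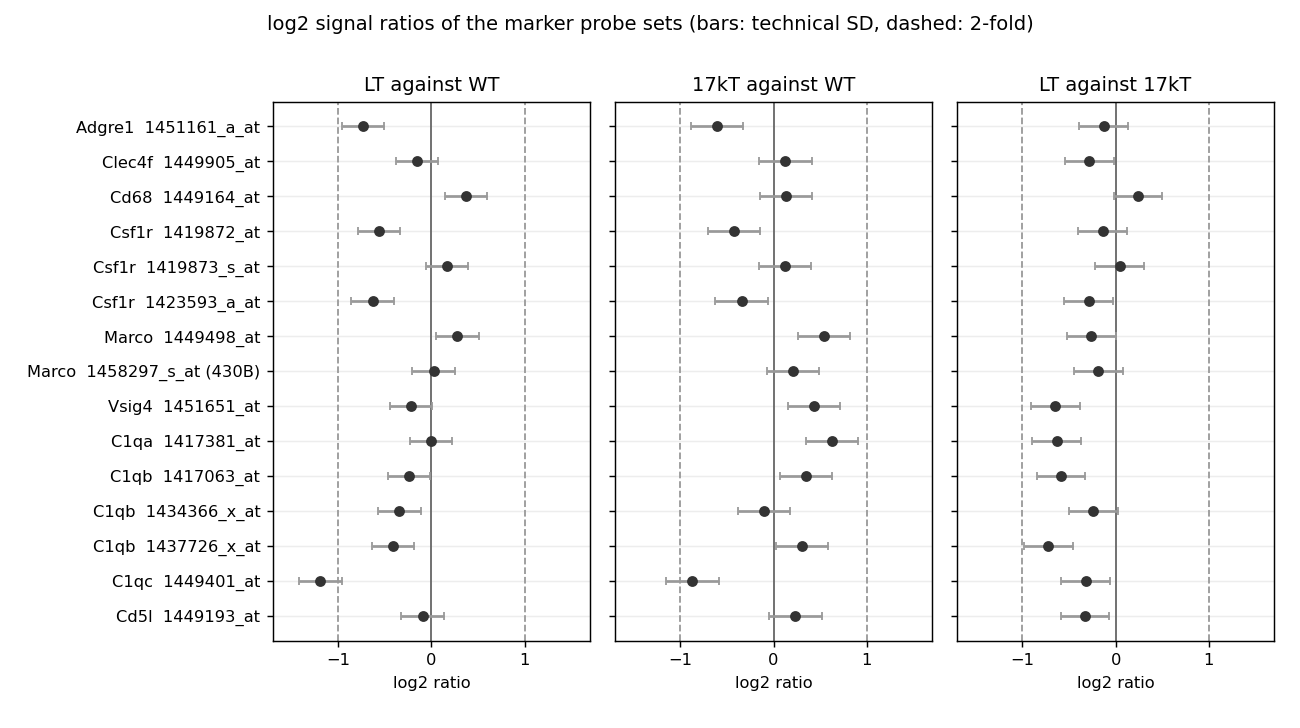
log2 signal ratio of each marker probe set in the 3 comparisons, with bars of 1 technical SD (0.23, 0.28 and 0.26) to each side and dashed lines at 2-fold. C1qc at -1.19 in LT against WT is the only point past 2-fold, and 13 of 15 points lie below 0 in LT against 17kT.

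Marco, a scavenger receptor with a collagen-like stalk that binds bacteria and particles, was measured on both designs. On 430A (1449498_at) its signal was 877 in LT and 1050.4 in 17kT, against 723 in WT. On 430B (1458297_s_at) it was 455 in LT and 518 in 17kT, against 448 in WT. Both probe sets were highest in 17kT and lowest in WT. The log2 ratios of 17kT to WT were 0.54 and 0.21, both above 0 under all 6 scalings, and those of LT to WT were 0.28 and 0.02. The 430B value for LT and for 17kT lay within the technical SD.

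Cd68 encodes macrosialin, a glycoprotein of the late endosome and lysosome of phagocytes. Its probe set 1449164_at gave 379 in LT and 321 in 17kT, against 293 in WT. The ratio of LT to WT, 0.37 on the log2 scale, exceeded the technical SD of 0.23 and stayed above 0 under all 6 scalings, while the 17kT ratio of 0.13 did not exceed its SD. Cd68 was 1 of 2 probe sets that were higher in LT than in 17kT, with a log2 ratio of 0.24.

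Vsig4 encodes CRIg, the receptor with which Kupffer cells clear particles coated with fragments of complement C3. Its probe set 1451651_at gave 762 in LT and 1195 in 17kT, against 886 in WT. LT was the lowest and 17kT the highest. The 17kT ratio of 0.43 stayed above 0 under all 6 scalings and the LT ratio of -0.22 did not keep its sign. LT against 17kT was -0.65, or 1.57-fold lower, more than 2 times the technical SD, as were 29.4% of all probe sets above the floor on both arrays.

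Cd5l encodes AIM, a secreted protein of tissue macrophages that circulates bound to IgM and is a target of the oxysterol receptors LXR. Its probe set 1449193_at gave 4129 in LT and 5188.5 in 17kT, against 4408 in WT. WT lay between the transgenic livers. The ratios to WT were -0.09 for LT and 0.24 for 17kT, both within the technical SD, and LT against 17kT was -0.33.

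C1q, the first component of the classical complement pathway, is built from the chains of C1qa, C1qb and C1qc. The 3 genes lie side by side on mouse chromosome 4 in the order C1qb, C1qc, C1qa, between Ephb2 and Epha8, and a C1q molecule holds the chains in equal numbers. Their ratios to WT were not equal. C1qa (1417381_at) gave 548 in LT and 849 in 17kT, against 549 in WT, so that LT stood at 0.999 of WT and 17kT was 1.55-fold higher. C1qb, on 1417063_at, gave 729.7 in LT and 1095 in 17kT, against 861 in WT. C1qc (1449401_at) gave 293 in LT and 366 in 17kT, against 668 in WT, which makes it 2.28-fold lower in LT and 1.83-fold lower in 17kT.

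The log2 ratio of C1qc minus that of C1qa was -1.19 for LT over WT and -1.501 for 17kT over WT, and minus that of C1qb it was -0.95 for LT and -1.22 for 17kT. Any scaling that multiplies an array by 1 factor leaves these gaps as they are, since the factor cancels. Under quantile normalization the gap to C1qa was -1.15 in LT and -1.56 in 17kT, and the gap to C1qb -1.003 in LT and -1.38 in 17kT. Against that, 2 probe sets of the same gene above the floor on 430A differed with an SD of 0.61 in LT against WT (1773 pairs) and 0.59 in 17kT against WT (1830 pairs). The gap to C1qa was near 2 times this spread in LT and over 2 times in 17kT. The gap to C1qb was under 2 times the spread in LT and about 2 times in 17kT. C1qc has a single probe set here, so its own spread between probe sets is not measured. In LT against 17kT the 3 chains lay together, at -0.63 for C1qa, -0.59 for C1qb and -0.32 for C1qc.

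C1qb had 2 further probe sets whose names end in _x_at, a class that may cross-react with other transcripts. 1434366_x_at gave 528 in LT and 624 in 17kT, against 669.6 in WT. 1437726_x_at gave 296 in LT and 487 in 17kT, against 394 in WT. All 3 probe sets of C1qb were lowest in LT, with a mean log2 ratio to WT of -0.33 ± 0.09 (SD over 3 probe sets). These probe sets share their arrays, so that SD holds no scaling error. Under another scaling the LT ratio was 0.13 for 1417063_at, 0.03 for 1434366_x_at and -0.04 for 1437726_x_at. In 17kT the mean was 0.18 ± 0.25, with 2 probe sets above WT and 1 below, so the spread between probe sets exceeded the difference.

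As a group, the 10 marker genes, each by its brightest probe set relative to the floor, had a median log2 ratio of -0.19 in LT against WT, 0.18 in 17kT against WT and -0.30 in LT against 17kT. Over all measured genes the medians were 0.02, 0.07 and -0.03. The median size of the ratio, sign left aside, over the 15 probe sets was 0.28, 0.34 and 0.28, against 0.48, 0.45 and 0.34 over all measured probe sets. In LT against 17kT, 13 of 15 marker probe sets lay below 0, against 53.5% of all measured probe sets. Scaled to the median of all probe sets the count was 10 of 15, and 5 of the 15 changed sign over the 6 scalings. As first scaled, all but Cd68 and the Csf1r probe set 1419873_s_at were on that side. Of the 15, 14 are on 430A, where the probe sets on both designs had a median offset of -0.36 from 430B in this comparison. Csf1r and C1qb have 3 probe sets each among the 15. Counted by gene, 9 of 10 lay below 0, against 52.1% of all measured genes. The 3 comparisons share arrays, so they are not independent of each other.

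**Figure D3:**
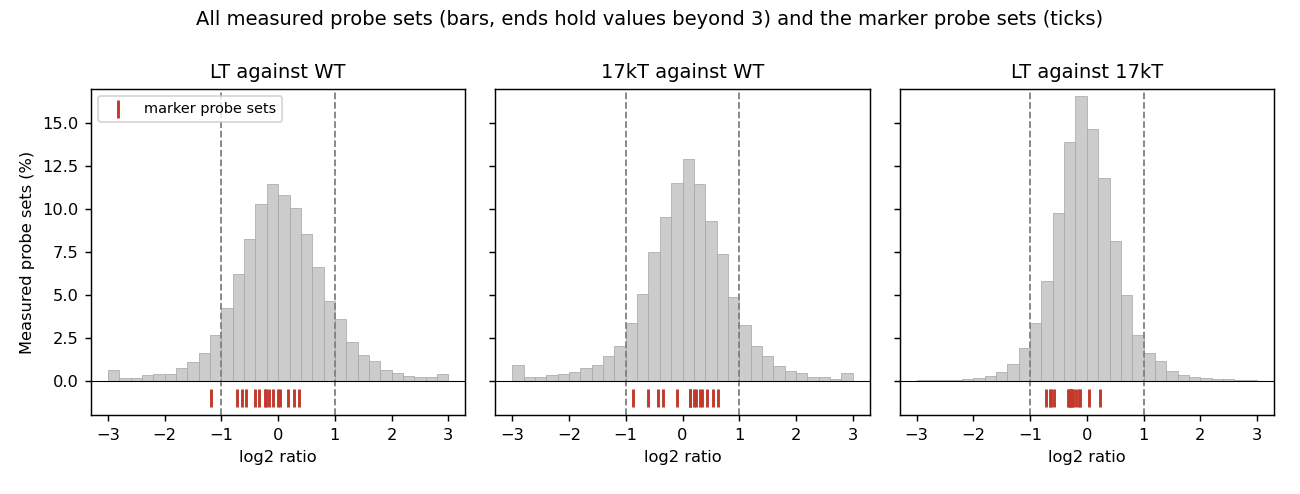
Distribution of the log2 ratios of all measured probe sets in 3 comparisons (bars, % of probe sets per bin of 0.2, end bins holding everything beyond 3) with the 15 marker probe sets as ticks below. The ticks run from -1.19 to 0.37 in LT against WT, -0.87 to 0.63 in 17kT against WT and -0.72 to 0.24 in LT against 17kT.

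The sign of these medians rested on scaling in the comparisons with WT. Under 6 scalings the marker median ran from -0.44 to 0.18 for LT against WT and from -0.02 to 0.90 for 17kT against WT, with the highest value of each under scaling to the hybridisation controls. That scaling moved the median of all genes by 0.39 in both comparisons. Set against the all-gene median, the marker median was below 0 in LT against WT under all 6 scalings (-0.29 to -0.17) and above 0 in 17kT against WT (0.02 to 0.43). In LT against 17kT it was below 0 both as it stands (-0.65 to -0.14) and relative to all genes (-0.50 to -0.17). This was not particular to the markers. Of the lists described below, stellate cell genes (median -0.50), scavenger genes (-0.30) and other liver macrophage genes (-0.25) were also below 0 under all 6 scalings. Genes around C1q (0.37) were above 0 under all 6, and hepatocyte genes stood at 0.11.

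**Figure D4:**
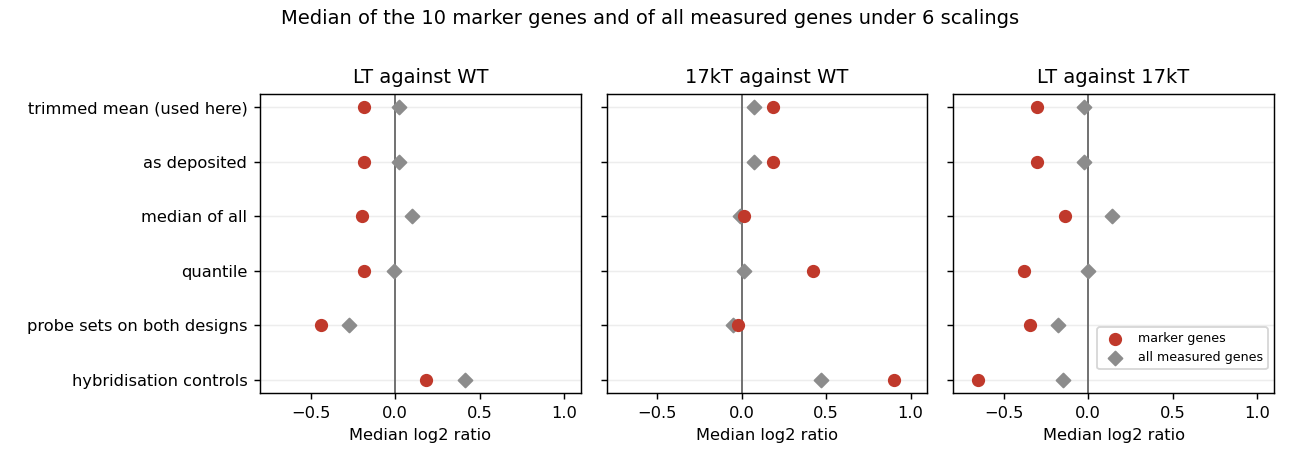
Median log2 ratio of the 10 marker genes (circles) and of all measured genes (diamonds) under 6 ways of scaling the arrays, for the 3 comparisons. The circles lie left of the diamonds under each scaling in LT against WT and in LT against 17kT, and right of them in 17kT against WT, by as little as 0.02.

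Other genes enriched in liver macrophages went both ways. Of 17 such genes on the arrays, 16 were measured in each comparison with WT. In LT, 2 were higher and 0 lower (median 0.02), and in 17kT 3 were higher and 2 lower (median 0.39). Over all measured genes, 11.1% were higher and 9.01% lower in LT, and 9.97% were higher and 8.64% lower in 17kT. In LT against 17kT the shares were 4.47% and 4.23%. These are the background shares for the counts of every list below. Timd4, a phosphatidylserine receptor of long-lived Kupffer cells, gave 642 in LT and 577 in 17kT, against 1238 in WT, which was 2.15-fold lower in 17kT. Clec1b, the lectin receptor CLEC-2, gave 358 in LT and 624 in 17kT, against 292 in WT, and Hmox1, the heme-degrading enzyme of red cell clearance, 232 in LT and 465 in 17kT, against 169 in WT. These were 2.14-fold and 2.75-fold higher in 17kT, and Hmox1 was 2.01-fold lower in LT than in 17kT. Under another scaling Timd4 (-0.96) and Clec1b (0.89) in 17kT and Hmox1 in LT against 17kT (-0.84) fell short of the rule. Il18bp, which neutralizes interleukin 18, was at the floor in WT and at least 2.70-fold higher in LT and at least 3.21-fold higher in 17kT. Axl, a receptor for dying cells, was 2.09-fold higher in LT (log2 1.06, and as low as 0.81 under other scalings). Cd163, the receptor for hemoglobin bound to haptoglobin, was at the floor in LT, and so at least 2.33-fold lower than in 17kT. Hpgd, which breaks down prostaglandins and is also made outside macrophages, was 2.97-fold lower in 17kT by 1 probe set, while its other probe set had a log2 ratio of -0.37. The same Hpgd probe set was 2.10-fold higher in LT than in 17kT, against 0.04 on the log2 scale for the other. Both Hpgd calls fell short of the rule under another scaling, at -0.85 and 0.72.

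Genes shared by macrophages and other myeloid cells had 1 of 29 measured members higher and 0 lower in LT (median -0.03), and 1 of 31 higher and 0 lower in 17kT (median 0.09). Clec7a, the beta-glucan receptor Dectin-1, gave 438 in LT and 261 in 17kT, against 179 in WT, 2.44-fold higher in LT. Mpeg1, a pore-forming protein of phagosomes, gave 1747 in LT and 2452 in 17kT, against 895 in WT, 2.74-fold higher in 17kT. Msr1, the class A scavenger receptor, was 2.41-fold lower in LT than in 17kT by 1 probe set, and another had a log2 ratio of -0.32. Spi1, the gene of PU.1, gave 55.4 in LT, 92.5 in 17kT and 77.8 in WT and so was near or below the floor on every array.

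Of 12 monocyte genes on the arrays, 7 were at the floor on all 3 arrays, among them Ccr2 and Cx3cr1, the chemokine receptors that define blood monocytes. Of the 5 measured in each comparison with WT, 1 was higher and 0 lower in LT, and 1 was higher and 0 lower in 17kT. That gene was Lgals3, a galectin also made by other cells, with 599 in LT and 536 in 17kT, against 151 in WT, 3.96-fold and 3.54-fold higher. Fn1, the gene of fibronectin, which hepatocytes also make, was 2.51-fold higher in LT than in 17kT by 1 probe set, and the other had a log2 ratio of 0.10.

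Among ligands and signalling partners of the CSF1 receptor, 1 of 12 measured genes was higher in LT (median 0.06) and 0 of 11 passed the rule in 17kT (median 0.11). Cbl, the ubiquitin ligase that takes the receptor down, was 2.01-fold higher in LT, a log2 ratio of 1.01 that was as low as 0.54 under other scalings. The ligand gene Csf1 gave 233 in LT and 177 in 17kT, against 129.8 in WT, but its other probe sets had log2 ratios from -0.41 to 0.23 in LT and from -0.07 to 0.44 in 17kT. The other ligand gene, Il34, was below the floor on all arrays. Pik3cd and Stat3 had the ratios farthest from 0 in 17kT, 0.88 and 0.87, but their other probe sets ran from -0.08 to 0.14 for Pik3cd and from -0.20 to 0.23 for Stat3. With LT set against 17kT, 0 of 12 passed, with Pik3cd at -0.90 and Sos1 at 0.83.

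Some genes around C1q in the classical pathway passed the rule, all in the lower direction under the scaling used. Of 13 measured genes for the proteases, substrates, receptors and inhibitors around C1q, 3 were lower in LT and 0 higher (median -0.74). In 17kT 6 were lower and 0 higher (median -0.998). Over all measured genes 9.01% were lower in LT and 8.64% in 17kT. C1qbp and Cd93 lay above WT in LT, at 0.48 and 0.81, as did Cd93 in 17kT, at 0.96. Another probe set of each was nearer 0, at 0.07 for C1qbp and 0.20 for Cd93 in LT, and at 0.15 for Cd93 in 17kT. C1ra, whose protease binds C1q, gave 952 in LT and 763 in 17kT, against 1891 in WT. C1s1, the second protease, gave 1884 in LT and 1256 in 17kT, against 3148 in WT. Their log2 ratios were -0.99 and -0.74 in LT and -1.31 and -1.33 in 17kT. Serping1, the inhibitor of both proteases, was 2.48-fold lower in LT and 4.05-fold lower in 17kT, Hc, which encodes C5, 3.55-fold and 5.76-fold, and Cfi, which cleaves C3b, 2.66-fold and 2.75-fold. The last 3 are made largely by hepatocytes. The median stayed below 0 under all 6 scalings (-0.99 to -0.37 in LT, -1.21 to -0.35 in 17kT). By its brightest probe set alone Cd93, a C1q receptor gene of endothelial and myeloid cells, reached 1.18 in LT and 1.68 in 17kT under another scaling. Both are past the rule in the higher direction. The rule was met by 0 of 13 in LT against 17kT, with C1qbp at 0.87 and Serping1 at 0.71.

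Lysosomal genes, of which 19 were measured, had 0 members past the rule in each of the 3 comparisons, with medians of -0.11 in LT against WT, -0.01 in 17kT against WT and 0.14 in LT against 17kT. The largest ratios were those of Gla (at least 0.89) and Psap (0.65) in LT, Ctsh (-0.91) and Lamp2 (-0.81) in 17kT, and Npc1 (-0.89) and Gla (0.89) in LT against 17kT. Other probe sets of Ctsh (-1.27) and Lamp2 (-1.60 to -0.94) went further in 17kT. Scavenger and dead cell receptors had a median of -0.43 in LT, below 0 under all 6 scalings (-0.62 to -0.06), and of 0.10 in 17kT, where the sign turned. Of 13 measured, 2 were higher and 0 lower in LT, Axl and the bridging protein gene Mfge8 (2.03-fold, with a log2 ratio of 1.02 that fell short of the rule at 0.77 under another scaling). In 17kT 1 was higher and 1 lower, Mfge8 (2.51-fold) and Timd4. Of 9 LXR genes (medians -0.27 in LT and -0.36 in 17kT), 2 were lower in LT, Scd1 (7.44-fold) and Lpcat3 (2.21-fold), and 2 in 17kT, Scd1 (8.48-fold) and Srebf1 (2.31-fold). These LXR targets are also lipid synthesis genes of hepatocytes. Of 9 measured, 0 passed in LT against 17kT, with Lpcat3 at -0.72 and Abcg5 at 0.67.

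Chemokine and cytokine genes went both ways, with 4 of 16 measured higher and 4 lower in LT and 3 of 15 higher and 3 lower in 17kT (medians -0.0070 and 0.08). Over all measured genes 11.1% were higher and 9.01% lower in LT, and 9.97% higher and 8.64% lower in 17kT. Ccl6, a chemokine of myeloid cells, gave 468 in LT and 781 in 17kT, against 95.7 in WT, 4.89-fold and 8.16-fold higher. Ccl9, its close relative in the same gene cluster, gave 420.2 in LT and 512 in 17kT, against 2118 in WT, 5.04-fold and 4.14-fold lower. For each of these genes the second probe set ran the same way, at 0.83 in LT and 2.10 in 17kT for Ccl6 and at -1.65 and -0.91 for Ccl9. Cxcl10 was 3.05-fold higher in LT and 2.23-fold higher in 17kT. Cxcl9 was 3.23-fold lower in LT and at least 7.38-fold lower in 17kT by 1 probe set. The other was at the floor in LT and 17kT, so its ratio of -0.16 in both is only a bound. By the first probe set Cxcl9 was at least 2.28-fold higher in LT than in 17kT. Arg1, an arginase of some macrophages and of the hepatocyte urea cycle, was 2.35-fold lower in LT and 4.15-fold lower in 17kT.

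Genes of dendritic cells and antigen presentation, some of which macrophages also express, had 2 of 7 measured lower and 0 higher in LT (median -0.48), and 4 lower and 1 higher in 17kT (median -1.11). Over all measured genes 9.01% were lower in LT, and 8.64% were lower and 9.97% higher in 17kT. Cd74, the invariant chain of MHC class II, gave 472 in LT and 502 in 17kT, against 1084 in WT, 2.30-fold and 2.16-fold lower. H2-Ab1 was 2.14-fold lower in LT and 2.18-fold lower in 17kT, and its other probe set stood at -0.81 and -0.76. H2-Aa was 2.63-fold lower in 17kT, where its other probe sets ran from -0.68 to -0.54, and H2-Eb1 was 2.29-fold lower. Each of these lower calls fell short of the rule under another scaling. Cd74 then stood at -0.83 in LT and -0.39 in 17kT, and H2-Ab1 at -0.73 and -0.41. H2-Aa stood at -0.68 and H2-Eb1 at -0.48 in 17kT. Zbtb46, a transcription factor gene of dendritic cells, was 2.13-fold higher in 17kT. With LT set against 17kT, 0 of 7 passed, with Zbtb46 at -0.73 and H2-Eb1 at 0.72. Under all 6 scalings the median stayed below 0 in LT against WT (-0.84 to -0.11) and in 17kT against WT (-1.32 to -0.39). In LT against 17kT its sign turned (-0.32 to 0.17).

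**Figure D5:**
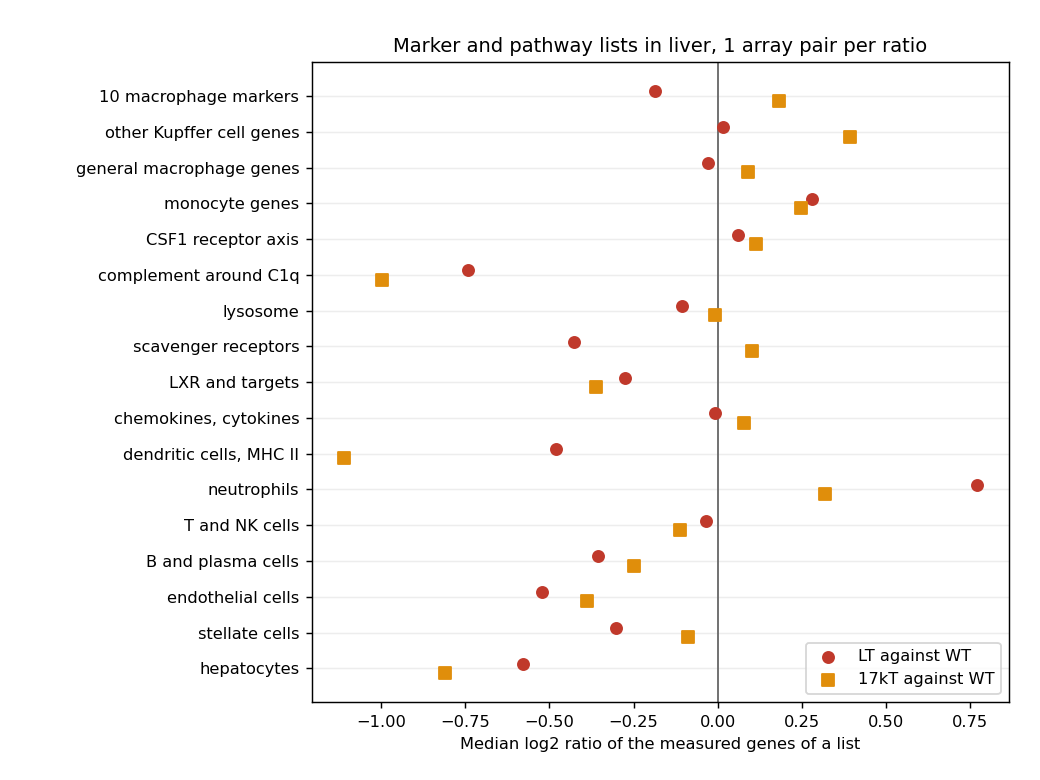
Median log2 ratio of the measured genes of each marker or pathway list in LT against WT (circles) and 17kT against WT (squares), with the bile duct and red cell lists left out for their few measured genes. The 10 macrophage markers lie at -0.19 and 0.18, the genes around C1q at -0.74 and -0.998 and the hepatocyte genes at -0.58 and -0.81.

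Markers of the other cells in the tissue moved as follows. Hepatocyte genes had 4 of 13 lower and 0 higher in LT (median -0.58), where 9.01% of all measured genes were lower. In 17kT 6 hepatocyte genes were lower and 0 higher (median -0.81), against 8.64% lower. The summed hepatocyte signal on 430A was 102029 in LT and 86489 in 17kT, against 164712 in WT, and no hepatocyte gene was at the floor on all arrays. Cyp2e1, a cytochrome P450, was 30.2-fold lower in LT and 14.4-fold lower in 17kT, F2, prothrombin, 2.41-fold and 2.61-fold, and Tat, tyrosine aminotransferase, 3.05-fold and 2.31-fold. Apob was 2.74-fold lower in LT (other probe set -0.51) and Serpina1c 3.76-fold lower in 17kT. Cyp2e1 was 2.09-fold lower and Serpina1c 2.09-fold higher in LT than in 17kT. Endothelial genes had 4 of 15 lower and 0 higher in LT (median -0.52), where 9.01% of all measured genes were lower. These were Ehd3 (2.33-fold, other probe set -0.44), Tek (2.31-fold), Cdh5 (2.27-fold) and Eng (2.03-fold, other probe set -0.61). Each fell short of the rule under another scaling, at -0.85, -0.84, -0.81 and -0.65 in that order. In 17kT 2 of 15 were lower and 1 higher (median -0.39), namely Cdh5 (2.36-fold), Eng (2.05-fold, other probe set -0.01) and Lyve1 (2.01-fold higher, other probe set 0.74). These too fell short under another scaling, at -0.52, -0.31 and 0.80. The rule was met by 0 of 15 in LT against 17kT, with Ehd3 at -0.71 and Clec4g at -0.51. Their summed signal on 430A was 4831 in LT and 5845 in 17kT, against 6724 in WT. Stellate cell genes had medians of -0.30 and -0.09, with 1 of 13 higher in each and 2 lower in LT and 1 lower in 17kT. In LT these were Vim (2.05-fold higher, other probe sets 0.45 and 0.95), Rgs5 (2.68-fold lower) and Lrat (2.18-fold lower). Another Rgs5 probe set was at the floor in LT and gave only a bound of -0.51. In 17kT they were Hand2 (at least 3.08-fold higher) and Acta2 (2.14-fold lower). Hand2 was 2.72-fold and Dcn 2.40-fold lower (other Dcn probe set -0.97), and Vim 2.18-fold higher, in LT than in 17kT. Of 11 neutrophil genes on the arrays, 4 were at the floor on all arrays. Among those measured, 2 of 6 were higher in LT (median 0.77), Lcn2 2.48-fold and S100a8 at least 2.53-fold. Lcn2 already gave 749 in WT, where S100a8 was below the floor, at 35.6. In 17kT 1 of 4 was higher, Lcn2 by 2.06-fold, with a log2 ratio of 0.83 under another scaling. Ngp stood below WT, at -0.05 in LT and -0.53 in 17kT. S100a8 was also at least 2.53-fold higher in LT than in 17kT. B and plasma cell genes had 1 of 7 lower in each, Ighm, the heavy chain of the IgM that carries the Cd5l product, by 2.52-fold in LT and 2.95-fold in 17kT, and Jchain was at or near the floor. Ighm has 11 probe sets, whose other log2 ratios ran from -0.79 to 0.10 in LT and from -0.79 to -0.11 in 17kT. The -0.79 is a bound from a probe set at the floor in LT and 17kT, and the 0.10 is a bound too. Of 7 measured, 0 passed in LT against 17kT, with Pax5 at -0.62 and Cd22 at -0.41. T and NK cell genes had 0 of 6 past the rule in either comparison with WT (medians -0.03 and -0.11), with Cd8a at -0.56 and Gzmb at 0.55 in LT and Prf1 and Ccl5 at -0.27 in 17kT, Prf1 as a bound. With LT set against 17kT, 0 of 4 passed, with Gzmb at 0.66 and Cd8a at -0.45. Of 7 bile duct genes 5 were at the floor on all arrays, and Prom1 and Cd24a were at least 6.09-fold and at least 6.03-fold higher in LT than in WT. The other Cd24a probe sets were at the floor in WT and 17kT, so their log2 ratios of 0.29 and 1.66 are bounds too. Against 17kT, LT was 3.48-fold higher for Prom1 and at least 6.03-fold higher for Cd24a. Of 5 red cell genes 3 were at the floor on all arrays, and Alas2 was 14.0-fold lower in LT and 12.4-fold lower in 17kT. The part of these shifts in the macrophage values was not tested.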

How the data were processed

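RNA of whole liver was measured on 6 Affymetrix arrays. The authors deposited linear signal intensities for each probe set. Per the submitters' processing notes they come from MAS5, whose version was not given in the sources used here. A settings file per array, holding other, non-expression entries, was deposited too and was read for the fluidics station, per the file headers. Gene symbols came from the platform annotation (20393 with 1 symbol, 691 with several and 1606 with none on 430A; 14674, 245 and 7656 on 430B). Signals were scaled within a design to a common 2% trimmed mean, floored at the median of the design and compared as log2 ratios with pandas 2.3.3 and numpy 2.4.6. Each gene was read from the probe set whose mean signal stood highest over its floor, _x_at kinds only where no other existed. Where 1 of 2 arrays is at the floor, the ratio is a bound. Genes were named by a fixed rule: all markers and, per list and comparison, up to 4 with the largest calls or, with none, the 2 largest ratios, and Csf1, Il34, C1ra, C1s1, Ighm and Jchain in any case. Spi1, Ccr2, Cx3cr1, Cd93, Ngp and, for 17kT, Clec1b and Zbtb46 were named after their values were seen. So was C1qbp for LT against WT. The markers and the 18 other lists were chosen with earlier results of these data known. The number of arrays limits the precision. The code was tested on simulated data.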

Additional observations from a re-analysis of the deposited data

How the results depend on the processing

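No paired analysis was possible because each genotype has 1 array per design. Medians of the 10 markers moved by more than the technical SD under 2 of 12 alternatives. Scaling to the probe sets on both designs gave -0.44 for LT against WT, and scaling to the hybridisation controls gave 0.18 for that comparison, 0.90 between 17kT and WT and -0.65 between LT and 17kT. The count of marker probe sets at least 2-fold apart in LT against WT, 1 as reported, was 0 when scaled to the hybridisation controls, with the floor as a pseudocount, on 430B alone (1 probe set) and with a 3-fold rule. In 17kT against WT, 0 as reported, it was 1 (C1qc lower) when scaled to the median of all probe sets or to those on both designs, and 5 (all higher, for Marco, Vsig4, C1qa and C1qb) when scaled to the hybridisation controls. In LT against 17kT it was 1 under that scaling, a C1qb probe set at -1.07. C1qc in LT against WT then stood at -0.82, and at -0.99 with the pseudocount. No single marker called at 2-fold changed sign. Among all called genes the share higher in LT than in WT was 55.2%, against 27.0% when scaled to probe sets on both designs and 82.9% with the hybridisation controls; between 17kT and WT it was 53.6%, against 42.9% and 83.5%, and between LT and 17kT 51.4%, against 20.8% and 56.5%, each in that order of scaling, and 73.3% when scaled to the median. Of the calls among genes of the 18 other lists, 19 of 38 in LT against WT, 17 of 41 in 17kT against WT and 8 of 14 between LT and 17kT passed in the same direction under all 6 scalings. The cause of these shifts was not tested. On 430B, Marco is the only marker.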
